A study of Mus musculus with 6 samples.

Results

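Genes of the proteasome, encoding its subunits, assembly chaperones, activators and inhibitor, were examined in RNA-seq libraries of mouse splenic CD4+ T cells. Members were all symbols of the count table that begin with *Psm*, a letter from a to f and a digit, without pseudogene or opposite-strand names, and that had 10 or more counts in each of the 4 libraries of that table. Of 35602 genes, 47 matched by symbol, and 45 of these met the minimum. Just inside it, *Psmc3ip* had 112 counts in its lowest library. Just outside it, *Psma8*, the testis alpha subunit, had between 3 and 9 counts, and *Psmb11*, the thymus catalytic subunit, had between 0 and 2. *Psmc3ip*, a cofactor of meiotic recombination, and *Psme3ip1*, which encodes a partner of an activator, match by name without being proteasome subunits. The other 43 members have a role in the proteasome or its assembly, and all 45 passed the filter on low counts.

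The cells were stimulated through CD3 and CD28 for 72 h and treated with MAPK13-IN-1, a small-molecule inhibitor of the kinase MAPK13, or with its solvent DMSO, with 3 libraries per group. For replicates 2 and 3, the labels give WT genotype and the addition of 17.1 µM inhibitor or 0.1 µl DMSO after day 1. Neither genotype nor dose is labelled for the replicate 1 pair, which was prepared with another library kit (stranded mRNA, against poly-T selection for replicates 2 and 3). Strain, sex and age are not labelled for any library. Replicates 2 and 3 had 26874805 and 28487403 counts with DMSO and 33854760 and 32617702 with MAPK13-IN-1. No label says that libraries came from separate animals or cultures, so p-values measure the spread between these libraries, which may be technical.

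The proteasome degrades proteins that carry ubiquitin chains. Its 20S core is a stack of outer alpha rings, which gate entry, and inner beta rings, of which certain subunits carry the proteolytic sites, and the 19S regulator caps the core, binds ubiquitin and unfolds substrates with a ring of ATPases. In lymphocytes and in cells exposed to interferon-γ, the catalytic subunits β5, β1 and β2 (*Psmb5*, *Psmb6*, *Psmb7*) are replaced in new particles by the immune forms β5i, β1i and β2i (*Psmb8*, *Psmb9*, *Psmb10*), which alter the peptides available to MHC class I molecules.

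Proteasome genes moved in both directions with MAPK13-IN-1. By edgeR's quasi-likelihood test, with p adjusted over all 16269 genes tested (Benjamini-Hochberg) and a threshold of 0.05, 23 of the 45 members fell, 9 rose and 13 did not pass. Over all genes, 63.8% passed the same threshold, with 32.3% lower and 31.5% higher. The median log2 fold change of the members was -0.16 (quartiles -0.65 and 0.14), against 0.01 for all genes (quartiles -0.49 and 0.55). With a change of at least 0.5 on the log2 scale also required, 14 members were lower and 3 were higher, against 22.2% and 22.4% of all genes. Summed over the members, normalized CPM (CPM, counts relative to the TMM-scaled library total) was 5561 and 5686 in the DMSO libraries and 5037 and 4871 in the MAPK13-IN-1 libraries, a difference of -11.9% that became -3.94% when libraries were scaled by their totals alone. That scaling raised the median of all genes by 0.13 on the log2 scale and gave 18 members lower and 15 higher, with the members' median 0.17 below that of all genes under either scaling. That gap was -0.32 without the filter on low counts, -0.11 with at least 10 counts required in every library and -0.24 without DMSO replicate 2. Upper-quartile scaling gave 19 lower and 13 higher. A fit without 1 library has a single library in that group and takes its spread from the other pair alone. The members' median absolute log2 difference between replicates was 0.04 with DMSO and 0.09 with the inhibitor, and standard errors were larger for every member in fits without a DMSO library and smaller for most in fits without an inhibitor library, so calls of such fits are not comparable with those of 2 libraries against 2. In bulk RNA, fewer cells of a type and less RNA per cell cannot be told apart.

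**Figure D1:**
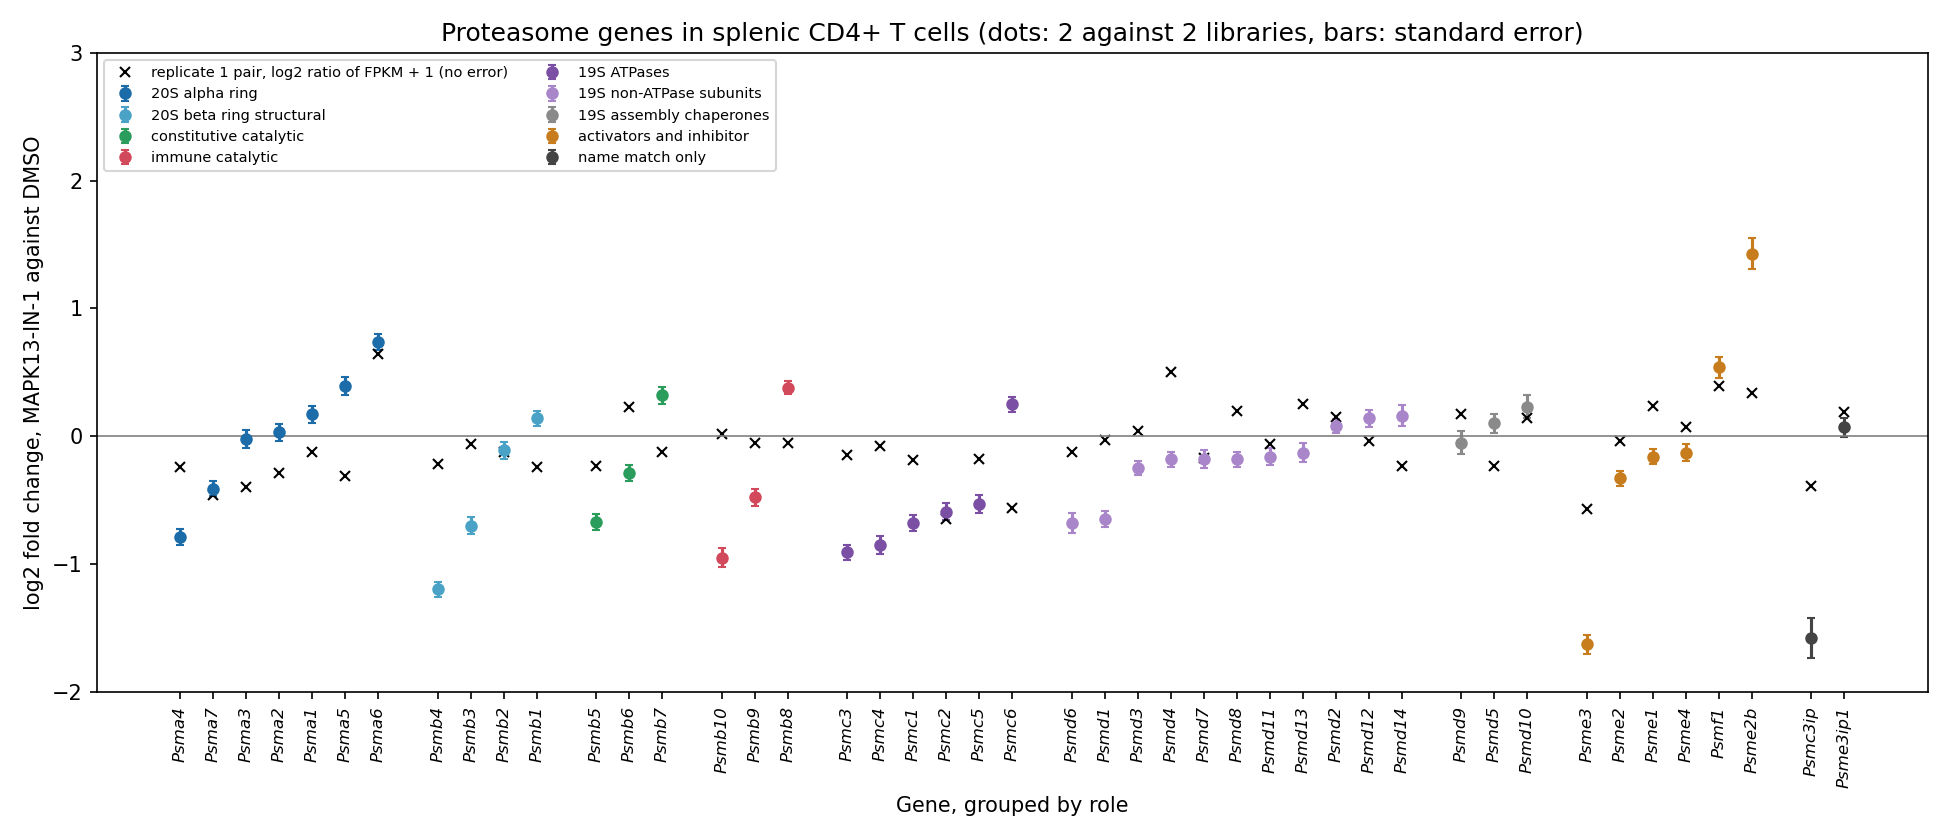
Log2 fold change of each of the 45 members, MAPK13-IN-1 against DMSO, grouped by role. Dots with bars are edgeR estimates from replicates 2 and 3 with their standard errors, and crosses are log2 ratios of FPKM + 1 in the replicate 1 pair, which have no error. Most role groups hold dots on both sides of 0, from *Psme3* at -1.63 to *Psme2b* at 1.43.

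The catalytic subunits split within each class. Among the constitutive subunits, *Psmb5* (chymotrypsin-like β5) measured 111 and 110 CPM with DMSO and 68.9 and 70.3 CPM with MAPK13-IN-1. *Psmb6* (caspase-like β1) measured 83.7 and 82.2 CPM with DMSO and 66.9 and 69.1 CPM with the inhibitor. *Psmb7* (trypsin-like β2) went the other way, from 115 and 120 CPM to 153 and 139 CPM. For all 3 genes the libraries of one treatment lay wholly above those of the other. The log2 fold changes were -0.67 ± 0.0611 (SE) for *Psmb5* (edgeR adjusted p = 6.12e-06), -0.29 ± 0.0641 for *Psmb6* (edgeR adjusted p = 0.00266) and 0.32 ± 0.0653 for *Psmb7* (edgeR adjusted p = 0.00168). The *Psmb6* call did not hold with offsets for transcript GC content (log2 fold change -0.12, edgeR adjusted p = 0.0931; 1.99e-06 to 0.0931 over 12 alternatives).

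The immune subunits split as well. *Psmb8* (β5i) measured 321 and 332 CPM with DMSO and 424 and 427 CPM with MAPK13-IN-1. *Psmb9* (β1i) measured 233 and 235 CPM with DMSO and 158 and 178 CPM with the inhibitor. *Psmb10* (β2i) measured 82.1 and 88.0 CPM with DMSO and 42.6 and 45.3 CPM with the inhibitor. *Psmb8* was thus higher in both treated libraries, whereas *Psmb9* and *Psmb10* were lower in both, and no treated library overlapped the controls. The log2 fold changes were 0.38 ± 0.0508 for *Psmb8* (edgeR adjusted p = 8.14e-05), -0.48 ± 0.0646 for *Psmb9* (edgeR adjusted p = 9.31e-05) and -0.95 ± 0.0724 for *Psmb10* (edgeR adjusted p = 1.68e-06). *Psmb8* (chr17:34197721-34201454, plus strand, GRCm38) and *Psmb9* (chr17:34181987-34187764, minus strand) lie in the MHC region, and both overlap exons of a gene on the opposite strand, by 498 and 212 bases. The strand setting of the counting is not stated, so reads of *Psmb9* and of its neighbour *Tap1* in the shared stretch cannot be told apart.

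Each immune subunit replaces a constitutive partner at the same position, so their ratio was taken within each library. The log2 ratio of *Psmb8* to *Psmb5* was 1.53 and 1.59 with DMSO and 2.62 and 2.60 with MAPK13-IN-1. That of *Psmb9* to *Psmb6* was 1.48 and 1.52 against 1.24 and 1.36, and that of *Psmb10* to *Psmb7* was -0.49 and -0.44 against -1.85 and -1.62. The β5 position thus shifted toward the immune gene by 1.05 on the log2 scale (2.07-fold), the β2 position shifted toward the constitutive gene by -1.27, and the β1 position differed by -0.19. The mean over the immune subunits minus the mean over the constitutive ones was 0.84 and 0.89 with DMSO and 0.67 and 0.78 with the inhibitor, a difference of -0.14 with a pooled SD of 0.0595. That mean difference was -0.08 without MAPK13-IN-1 replicate 2 and -0.19 without MAPK13-IN-1 replicate 3, and -0.08 with GC offsets. The two-sided exact permutation test gave p = 0.33 for each of the 4 differences, the smallest it allows with 2 libraries against 2, so this test cannot separate them by size. In the replicate 1 pair the corresponding differences were 0.18, 0.14 and -0.28 for the β5, β2 and β1 positions and 0.01 for the mean.

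**Figure D2:**
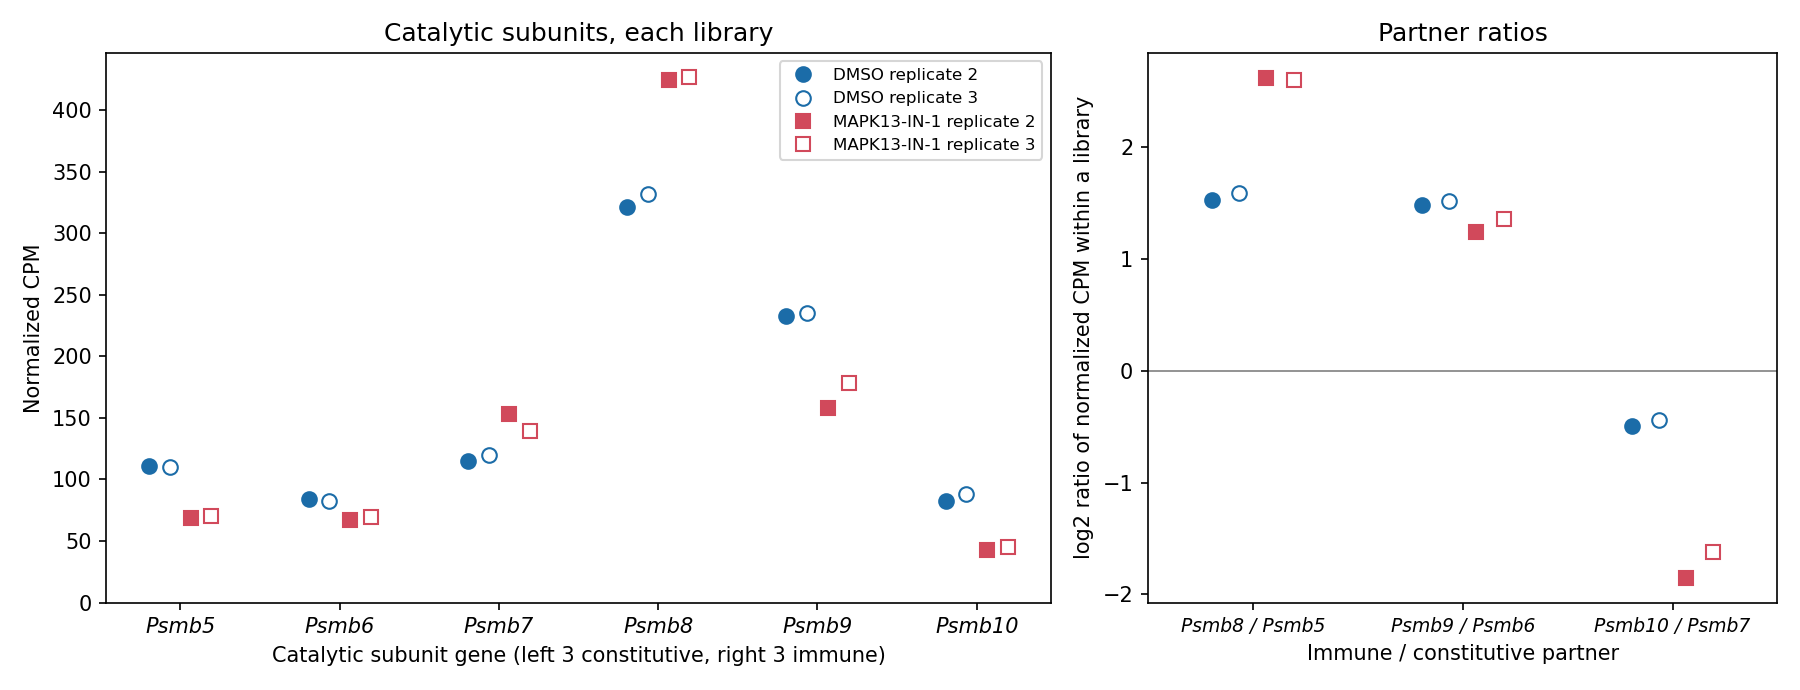
Left, normalized CPM of the 6 catalytic subunit genes in each library of replicates 2 and 3 (circles, DMSO; squares, MAPK13-IN-1; filled, replicate 2; open, replicate 3). Right, log2 ratio of each immune gene to its constitutive partner within the same libraries, which is higher with the inhibitor for *Psmb8* to *Psmb5* and lower for *Psmb10* to *Psmb7*.

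In the alpha ring, 2 of 7 genes fell and 3 rose. *Psma4* (α3) measured 152 and 150 CPM with DMSO and 84.9 and 89.8 CPM with the inhibitor, and *Psma6* (α1) measured 127 and 129 CPM against 222 and 204 CPM. Subunits of the same ring thus moved apart, with log2 fold changes of -0.79 ± 0.0608 (edgeR adjusted p = 1.85e-06) and 0.74 ± 0.0617 (edgeR adjusted p = 3.32e-06). *Psma7* fell by 0.41 and *Psma5* rose by 0.39. *Psma1*, at 0.17, passed narrowly (edgeR adjusted p = 0.0497) and its call was lost without DMSO replicate 2 (0.14), DMSO replicate 3 (0.18) or MAPK13-IN-1 replicate 2 (0.08), with edgeR or DESeq2 adjusted p from 7.7e-06 to 0.284 over 12 alternatives. Without DMSO replicate 3, with spread from the inhibitor pair alone, its standard error was 0.108 in place of 0.0679 at a near equal fold. *Psma3* (α7) had the largest p of the ring, with 104 and 106 CPM against 110 and 97.2 CPM, and the groups overlapped. *Psma2* (α2), at 0.03, did not pass either. With GC offsets the ring had 4 genes lower and 2 higher and a median of -0.19 in place of 0.03, since *Psma2* and *Psma3* were then called lower, each at -0.19 (edgeR adjusted p = 0.0149 and 0.019; 0.0149 to 0.906 and 0.019 to 0.98 over 12 alternatives), and *Psma1*, at 0.08, was not called.

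Among the structural beta subunits, 2 of 4 fell and none rose. *Psmb4* (β7) measured 239 and 238 CPM with DMSO and 99.6 and 108 CPM with MAPK13-IN-1. *Psmb3* (β3) measured 96.7 and 100 CPM against 59.1 and 62.7 CPM. Both treated libraries lay below both controls, and the log2 fold changes were -1.20 ± 0.0607 (edgeR adjusted p = 1.43e-07) and -0.70 ± 0.0662 (edgeR adjusted p = 7.9e-06). *Psmb2* (β4) measured 99.1 and 96.9 CPM against 94.2 and 87.4 CPM and did not pass (edgeR adjusted p = 0.163), though without MAPK13-IN-1 replicate 2, with spread from the DMSO pair alone, it was at -0.17 (edgeR adjusted p = 0.0113; 0.0113 to 0.85 over 12 alternatives). *Psmb1* (β6), at 0.14, did not pass (edgeR adjusted p = 0.0538) but was called higher under 6 of 12 alternatives, upper-quartile and total scaling and the omission of MAPK13-IN-1 replicate 3 (0.18) among them (edgeR or DESeq2 adjusted p from 0.000271 to 0.312).

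The 19S ATPases, which form the ring that unfolds substrates, had 5 of 6 genes lower. *Psmc3* (Rpt5) measured 129 and 131 CPM with DMSO and 68.4 and 69.8 CPM with the inhibitor, and *Psmc4* (Rpt3) measured 103 and 107 CPM against 55.6 and 60.5 CPM. Their log2 fold changes were -0.91 ± 0.0604 (edgeR adjusted p = 6.82e-07) and -0.85 ± 0.0691 (edgeR adjusted p = 2.61e-06). *Psmc1*, *Psmc2* and *Psmc5* fell by 0.68, 0.59 and 0.53. *Psmc6* (Rpt4) measured 134 and 129 CPM with DMSO and 161 and 152 CPM with the inhibitor, so it alone of the ring was higher in both treated libraries. Its log2 fold change was 0.25 ± 0.0600 (edgeR adjusted p = 0.00364). That call was lost without DMSO replicate 3 (0.22 ± 0.108, edgeR adjusted p = 0.0815), where the inhibitor pair alone gave the spread and the fold hardly moved, and with GC offsets the value was -0.05, within 1.43e-07 to 0.396 for the adjusted p over 12 alternatives. *Psmc6* had the lowest GC content of the members, 37.0% of its transcript.

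Of the 11 non-ATPase subunits of the 19S regulator, which bind ubiquitin, remove it or hold the particle together, 6 were lower and none was higher. *Psmd1* (Rpn2, a scaffold of the base) measured 98.2 and 96.9 CPM with DMSO and 62.8 and 61.7 CPM with MAPK13-IN-1. *Psmd6* (Rpn7, of the lid) measured 47.6 and 46.3 CPM against 29.8 and 28.7 CPM. These genes fell by 0.65 and 0.68 (edgeR adjusted p = 8.85e-06 and 3.08e-05). *Psmd3*, *Psmd4* (the ubiquitin receptor Rpn10), *Psmd7* and *Psmd8* had smaller falls, from -0.25 to -0.18, and without DMSO replicate 3 they no longer passed, with values of -0.23, -0.17, -0.13 and -0.17, which left 2 subunits lower. The folds of *Psmd3*, *Psmd4* and *Psmd8* hardly moved, while that of *Psmd7* shrank from -0.18 (and was -0.26 without DMSO replicate 2). The standard error, from the inhibitor pair alone, was larger (0.105 against 0.0572 for *Psmd3*). Without DMSO replicate 2 *Psmd4* and *Psmd8* did not pass either, each at -0.21. With GC offsets *Psmd3* and *Psmd4* were each at -0.03 and *Psmd8* at -0.09, and none of these passed. With libraries scaled by their totals, 2 were lower and 3 higher. *Psmd2* (Rpn1) had the largest p, with 312 and 320 CPM against 343 and 325 CPM. Its value was 0.08, and *Psmd14* (the deubiquitinase Rpn11) was at 0.16, *Psmd12* at 0.14, *Psmd13* at -0.13 and *Psmd11* at -0.16, none of which passed. Without MAPK13-IN-1 replicate 3 these 5 genes were at 0.11, 0.28, 0.19, -0.16 and -0.13 in the order given. Without MAPK13-IN-1 replicate 2 they were at 0.04, 0.03, 0.08, -0.11 and -0.19. Such fits take their spread from the DMSO pair alone, so their calls do not add to those of the full fit. With all libraries, *Psmd11* was called lower with GC offsets (-0.19, edgeR adjusted p = 0.0173) and with the replicate number as a block (-0.16, edgeR adjusted p = 0.0428). *Psmd14* was called higher with that block (0.16, edgeR adjusted p = 0.039) and *Psmd2* with GC offsets (0.13, edgeR adjusted p = 0.046). *Psmd12* and *Psmd13* were called in neither. With upper-quartile scaling *Psmd2*, *Psmd12* and *Psmd14* were called higher, at 0.16, 0.22 and 0.24 (edgeR adjusted p = 0.0243, 0.0138 and 0.0231). Total scaling called the same genes higher, at 0.21, 0.27 and 0.29 (edgeR adjusted p = 0.0065, 0.00512 and 0.0106). With at least 10 counts in every library, *Psmd12* (0.19) and *Psmd14* (0.21) were called higher. *Psmd13* was called in no fit with all libraries.

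The chaperones that assemble the 19S base showed small differences. *Psmd10* (gankyrin) measured 24.5 and 25.1 CPM with DMSO and 28.2 and 30.2 CPM with the inhibitor. *Psmd5* measured 47.1 and 51.3 CPM against 53.7 and 51.5 CPM, and *Psmd9* measured 25.3 and 26.8 CPM against 24.8 and 25.4 CPM. *Psmd10* alone passed, with a log2 fold change of 0.23 ± 0.0890 (edgeR adjusted p = 0.0403). Its call was lost under 6 of 12 alternatives, with edgeR or DESeq2 adjusted p from 0.00453 to 0.295. Among these were GC offsets, where its value was 0.11 (edgeR adjusted p = 0.295). The omission of DMSO replicate 2, DMSO replicate 3 or MAPK13-IN-1 replicate 3 gave 0.20, 0.24 and 0.18.

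The activators and the inhibitor held both the largest fall and the largest rise of all members. *Psme3* (chr11:101316213-101323537), which encodes the nuclear activator PA28γ, measured 199 and 205 CPM with DMSO and 60.6 and 70.1 CPM with MAPK13-IN-1, a log2 fold change of -1.63 ± 0.0746 (edgeR adjusted p = 8.37e-08). *Psme2b* (chr11:48945354-48946190), a copy of the PA28β gene, measured 6.71 and 6.88 CPM against 18.9 and 17.7 CPM, a log2 fold change of 1.43 ± 0.118 (edgeR adjusted p = 2.92e-06). The *Psme2b* value is uncertain, since 68.7% of its 50-base words also occur in *Psme2*. *Psmf1*, which encodes the inhibitor PI31, rose by 0.54 from 39.0 and 39.6 CPM to 60.9 and 53.5 CPM.

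*Psme1* and *Psme2* encode the interferon-inducible activator PA28αβ, which opens the core without ATP. *Psme1* measured 201 and 207 CPM with DMSO and 189 and 177 CPM with the inhibitor. *Psme2* measured 293 and 312 CPM against 246 and 235 CPM. Both treated libraries were below both controls for each gene, with log2 fold changes of -0.16 ± 0.0579 (edgeR adjusted p = 0.0353) and -0.33 ± 0.0566 (edgeR adjusted p = 0.00051). The *Psme1* call was lost under 8 of 12 alternatives, among them GC offsets and RLE, upper-quartile and total scaling. Its value was -0.03 with total scaling (edgeR adjusted p = 0.662) and -0.00 with GC offsets (edgeR adjusted p = 0.977). The omission of DMSO replicate 2 or DMSO replicate 3 gave -0.19 and -0.14. *Psme2* kept its call, at -0.20 with total scaling. *Psme4*, the activator PA200, measured 90.5 and 90.3 CPM against 85.5 and 79.4 CPM and did not pass (edgeR adjusted p = 0.0969). With GC offsets it was called lower, at -0.22 (edgeR adjusted p = 0.0067), while with total scaling it was at -0.01 (edgeR adjusted p = 0.925). The omission of MAPK13-IN-1 replicate 2, which leaves 1 treated library and spread from the DMSO pair, gave -0.19. Of the members without a proteasome role, *Psmc3ip* fell by 1.58 and *Psme3ip1*, at 0.07, did not pass.

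The replicate 1 pair, deposited as values read here as FPKM, gave a partly different picture. With 1 library per group there is no replicate check and no p-value. By a log2 ratio of FPKM + 1 past 0.32 in either direction, 6 members were lower and 4 higher, against 18.4% lower and 26.6% higher among the 10448 genes that reached 1 FPKM in each of its libraries. The median of that ratio was -0.08 for the members and 0.05 for those genes. Of the 23 members lower in the count table, 17 were also below 0 in the pair, where 59.3% of all such lower genes were. Of the 9 higher members, 4 were above 0, where 72.4% of all such higher genes were.

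In this pair *Psma6* went from 124 FPKM in the DMSO library to 194 FPKM in the treated one, and *Psme3* had 85.0 and 56.8 FPKM, both in the direction of the count table. *Psmf1* and *Psme2b* had log2 ratios of 0.39 and 0.34. Of the catalytic genes, *Psmb5* (136 and 116 FPKM) and *Psmb9* (188 and 182 FPKM) had the direction of the count table and the other 4 did not. *Psmb8* had 239 and 231 FPKM and *Psmb10* had 54.0 and 54.9 FPKM, while *Psmb6* had 82.8 and 97.2 FPKM and *Psmb7* had 158 and 146 FPKM. The 5 members that were higher in the count table but below 0 in the pair were *Psma1*, *Psma5*, *Psmb7*, *Psmb8* and *Psmc6*, a group named after its values were seen. All 6 ATPases were below 0 in the pair, with a median of -0.19, where 4773 of the 10448 genes were below 0. *Psmc2* (-0.65) and *Psmc6* (-0.56) were past the threshold. Library kit, unit and replicate differ together between the pair and the count table, so their parts cannot be told apart.

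FPKM values are scaled by gene length and so allow levels of different genes to be set side by side. In the DMSO library of replicate 1, *Psmb8*, *Psme2* and *Psme1* ranked highest of the 43 genes with a proteasome role, at 239, 237 and 226 FPKM, and the median was 89.2 FPKM. The immune subunits together took 56.1% of the catalytic subunit FPKM with DMSO and 56.6% with MAPK13-IN-1. That share rested on *Psmb8* and *Psmb9*, since *Psmb10* (54.0 FPKM) was the lowest gene of the core. Core genes had a median of 151 FPKM and genes of the 19S base and lid a median of 75 FPKM in this library. The assembly chaperones, *Psme4* and *Psmf1* lay lowest, between 9.77 and 24.2 FPKM. Each level rests on 1 library, so neighbours in this order cannot be separated.

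**Figure D3:**
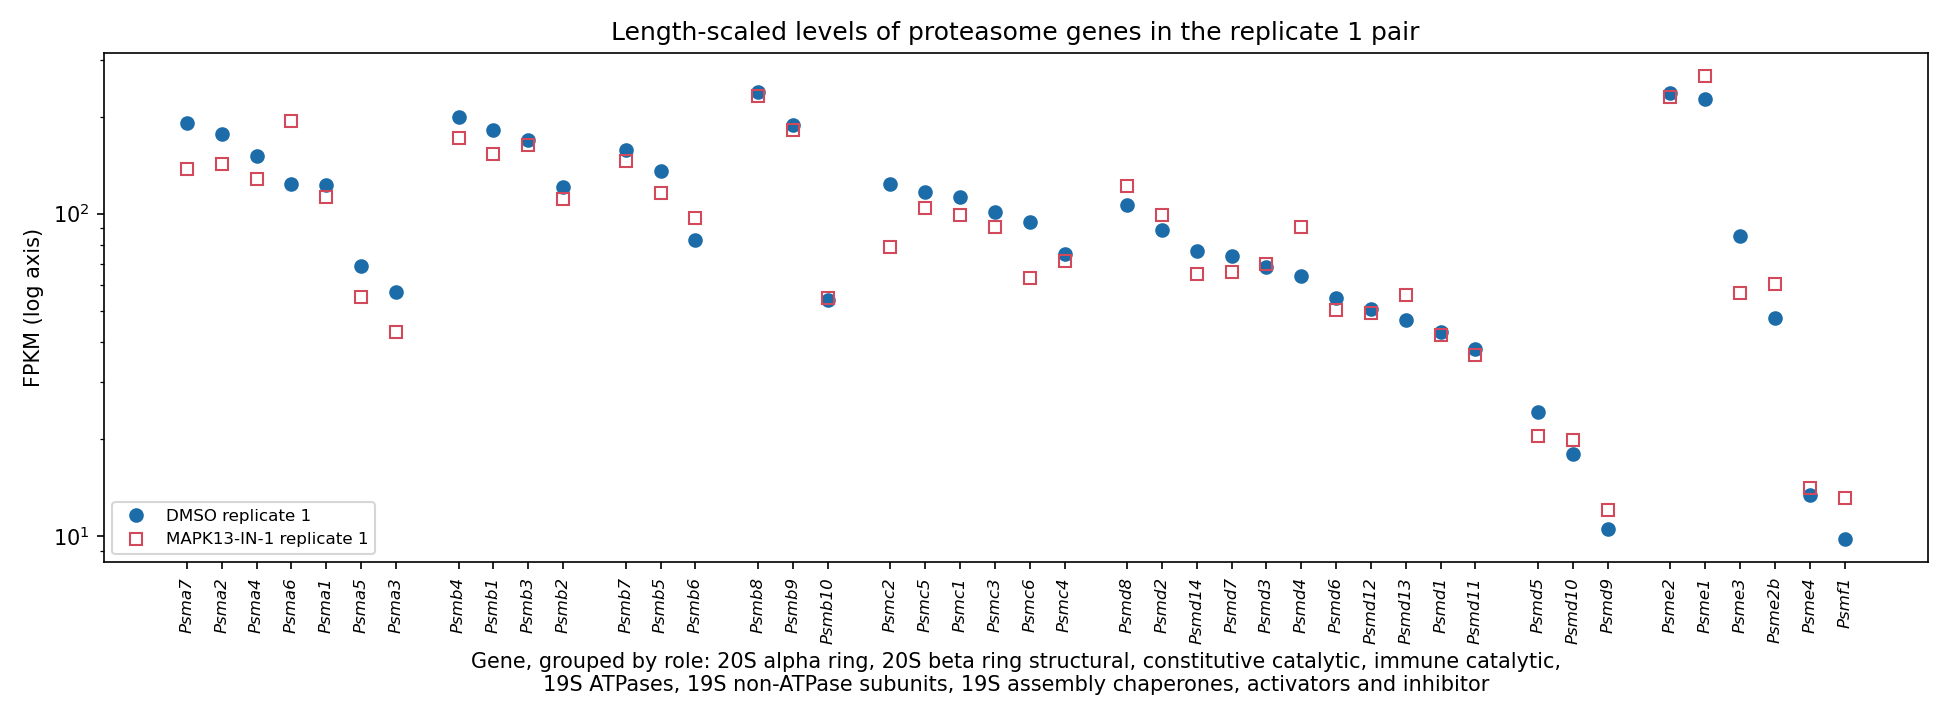
FPKM (log axis) of the 43 genes with a proteasome role in the replicate 1 pair, grouped by role and ordered by the DMSO value. Circles are DMSO and open squares MAPK13-IN-1, 1 library each, and core genes sit mostly above genes of the 19S regulator.

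Base composition was set beside the fold changes. Over the 44 members with an annotated transcript, the log2 fold change and transcript GC content had a Spearman correlation of -0.43 (Pearson -0.31), against -0.16 (Pearson -0.11) over 14473 genes, as a description across genes, which are not independent replicates. The median GC content was 52.6% for the lower members, 48.7% for the higher ones and 47.9% for those not called, and no difference between these groups was tested. In the replicate 1 pair the sign was opposite, with 0.33 over the members and 0.09 over 10075 genes. With offsets for GC content, chosen after the data were seen, 22 members were lower and 7 higher. Whether composition had a part in single values beyond that was not tested. For 16 members, at least 20% of transcript 50-base words occur in another gene or at least 200 bases of exon overlap one. *Psmb3*, *Psmb5*, *Psmb7*, *Psma5* and *Psme2* are among these members, whose counts are less certain. Without these, 15 members were lower and 5 higher.

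Genes that build or serve the proteasome moved in both directions too. Of 14 tested genes among other proteasome factors, 6 fell and 2 rose (42.9% and 14.3%, against 32.3% and 31.5% of all genes). The alpha ring assembly chaperone *Psmg2* had 25.5 and 26.5 CPM with DMSO and 12.2 and 10.8 CPM with the inhibitor (log2 fold change -1.18, edgeR adjusted p = 5.4e-06). *Akirin2*, which aids nuclear import of the proteasome, fell by 0.63 and *Adrm1*, the ubiquitin receptor Rpn13, by 0.54 (-0.25 with GC offsets), while the deubiquitinase gene *Uchl5* rose by 0.79. *Pomp*, the maturation factor of the core, measured 90 and 93.3 CPM against 102 and 93.1 CPM and did not pass (edgeR adjusted p = 0.263). Its value of 0.09 became 0.17 with upper-quartile scaling (edgeR adjusted p = 0.0488) and 0.22 with total scaling (edgeR adjusted p = 0.0177), both called higher. Without MAPK13-IN-1 replicate 3, with spread from the DMSO pair alone, it was at 0.15. In the ubiquitin supply and delivery list, 12 of 18 genes fell and 1 rose (66.7% and 5.56%). *Ubb* (ubiquitin) was lower by 0.67, *Uba1* (the main ubiquitin-activating enzyme) by 0.80 and *Ubxn1*, whose product binds ubiquitin chains, by 1.12. The groups of libraries did not overlap for any of these genes but *Pomp*.

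NRF1, encoded by *Nfe2l1*, is the transcription factor known for raising proteasome genes when the proteasome is impaired. *Nfe2l1* measured 294 and 290 CPM with DMSO and 109 and 102 CPM with MAPK13-IN-1, a log2 fold change of -1.47 ± 0.0581 (edgeR adjusted p = 3.14e-08), and 64.4 and 43.9 FPKM in the replicate 1 pair. Of the 9 genes of its pathway, 2 fell and 4 rose (22.2% and 44.4%, against 32.3% and 31.5% of all genes). The rises were those of *Mafk* (0.82) and *Maff* (0.56), small MAF partners that bind DNA with NRF1, of *Mafg* (0.29, named after its value was seen) and of *Bach1* (0.74), a repressor that shares those partners. Their log2 ratios in the replicate 1 pair were 0.37, 0.12, -0.13 and 0.73, in the order given.

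NRF1 binds antioxidant response elements, so the letters TGANNNNGC were searched on both strands in RefSeq windows (GRCm38.p6) from 250 bases before to 50 bases after each gene start. Of 39 members with a window, 22 (56.4%) held a match, against 45.0% of 27025 genes with windows. Matches were found for 12 of 20 lower, 4 of 8 higher and 6 of 11 uncalled members. CCAAT letters were held by 38.5% of members and 41.1% of genes, and the interferon-stimulated letters GAAANNGAA by 15.4% and 9.76%. A match is a description of letters, not a bound site. The stretches around a match are printed for *Psmb5* (chr14:54618009-54618067, minus strand) and *Psmb6* (chr11:70525323-70525356, plus strand), which fell, and for *Psma6* (chr12:55384027-55384085, plus strand) and *Psmc6* (chr14:45329574-45329630, plus strand), which rose, since the same letters precede genes called in either direction. Of these, the calls of *Psmb6* and *Psmc6* are not firm, as both were lost with GC offsets and the replicate 1 pair had the opposite sign (0.23 and -0.56). They read 5′ to 3′ along the gene, with 1 match in capitals, which for *Psma6* and *Psmc6* is on the opposite strand. The *Psmc6* stretch also holds a match on the gene's own strand, left in lower case.
Psmb5: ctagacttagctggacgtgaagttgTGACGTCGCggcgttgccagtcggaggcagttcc
Psmb6: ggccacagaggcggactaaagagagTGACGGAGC
Psma6: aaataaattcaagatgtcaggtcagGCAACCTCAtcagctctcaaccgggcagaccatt
Psmc6: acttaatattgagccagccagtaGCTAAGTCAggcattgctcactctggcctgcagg

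Immune subunits share inducers and a pathway with MHC class I peptide loading. In that list, 7 of 14 genes fell and 3 rose. *H2-K1* measured 3670 and 3690 CPM with DMSO and 1860 and 1970 CPM with the inhibitor, and *H2-D1* measured 3250 and 3270 CPM against 1340 and 1500 CPM, so these class I heavy chain genes fell by 0.94 and 1.20 (edgeR adjusted p = 1.08e-07 and 9.9e-08). *Tap1*, the peptide transporter gene beside *Psmb9*, measured 658 and 668 CPM against 447 and 472 CPM and fell by 0.53 (-0.34 with GC offsets). The chaperone gene *Calr* fell by 1.05, and *Pdia3*, whose product joins the loading complex, rose by 0.69. In the replicate 1 pair 11 of the 14 genes were above 0, against 5675 of 10448 genes. *H2-K1* was at 0.31 and *H2-D1* at 0.37, opposite to the count table.

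Markers of other cells were measured beside these genes. *Cd4* measured 275 and 276 CPM with DMSO and 267 and 283 CPM with MAPK13-IN-1, which overlapped. For the marker counts given here, the shares over all genes were 32.3% lower and 31.5% higher. Of 8 tested CD4 T cell markers, 6 fell and 1 rose, while *Trac* and *Trbc2* are not in the table. Their summed CPM was 1773 and 1801 against 1027 and 1150, with *Cd5* the most abundant with DMSO and *Cd4* with the inhibitor. In the replicate 1 pair, 4 of these 8 markers were below 0 and 4 above 0. B cell markers were also present in replicates 2 and 3, with a sum of 1163 and 1143 CPM against 1317 and 1341 CPM. Of 11 tested B cell markers, 7 rose and 3 fell, with *Pax5* the most abundant with the inhibitor, and in the replicate 1 pair their sum was 54.1 and 37.4 FPKM. In the same pair the sums of macrophage and dendritic cell markers were 30.9 and 50.5 FPKM (*Batf3*, named after its values were seen, alone 26.6 and 35.9 FPKM, opposite to its fall in the count table), of CD8 and NK cell markers 4.78 and 14.5 FPKM, of erythroid markers 1.00 and 2.03 FPKM and of CD4 T cell markers 1076 and 1004 FPKM. Macrophage and dendritic cell markers summed to 42.8 and 42.0 CPM against 55.2 and 49.2 CPM (7 of 9 higher, 1 lower). The lower one, *Batf3*, was the most abundant with DMSO, at 25.8 and 26.1 CPM against 2.14 and 3.54 CPM, so the sum understates the rise of the others, of which *Cd68* went from 10.5 and 9.3 CPM to 28.5 and 25.1 CPM. Erythroid markers summed to 10.5 and 10.2 CPM against 90.8 and 66.1 CPM (5 of 7 higher, 1 lower), with *Epor* the most abundant with DMSO and *Hbb-bs* with the inhibitor. CD8 and NK cell markers summed to between 10.6 and 15.4 CPM in every library (1 of 5 higher, 2 lower, *Cd8b1* the most abundant), and the 1 tested neutrophil marker, *Mpo*, rose from 2 and 2 counts to 17 and 16 counts (edgeR adjusted p = 0.00457), below 0.5 CPM in every library. The study's methods describe isolation of the cells with a mouse CD4 T cell kit, and the part of other cells in the values of proteasome genes was not tested.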

How the data were processed

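RNA-seq of stimulated splenic CD4+ T cells was analysed, 3 libraries per group. For replicates 2 and 3, the authors deposited raw counts per gene. For the replicate 1 pair, the deposited values carry no unit and were read as FPKM, since they are not whole numbers and sum to 405150 and 390729. The submitters' processing notes name fastp 0.21.0, HISAT2 2.1.0, StringTie 2.1.5 and DESeq2 1.30.1 with mm10, and FastQC and HISAT2 with GRCm38 and mm10 for the pair. Which of these tools made the counts, the annotation and the strand setting are not given in the sources used here. The members and gene lists were chosen with earlier results of these data known.

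Counts were fitted in R 4.3.3 with edgeR 4.0.16 (filterByExpr, minimum count 10 and total 15, TMM, quasi-likelihood test, Benjamini-Hochberg) without covariates, tested on simulated data. DESeq2 1.42.0 served as an alternative, beside other scalings, filters, the replicate number as a block, GC offsets (lowess) and the omission of each library. FPKM ratios used a pseudocount of 1, which understates changes of low genes. Library sizes ranged from 26874805 to 33854760 counts. GENCODE M21 gave coordinates, GC content and shared 50-base words, and RefSeq (GRCm38.p6) gave promoter windows. The genes named were the 6 catalytic subunits, *Psme1*, *Psme2*, per role the 2 smallest and the largest p, the largest fall and rise, and up to 4 genes with the smallest p per other list, with *Pomp*, *Adrm1*, *Nfe2l1* and *Tap1* always named. Other names were added to account for all members, and 1 gene that the rule names is not reported here.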

Additional observations from a re-analysis of the deposited data

How the results depend on the processing

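The call was kept under every alternative by 17 of the 23 lower and 6 of the 9 higher members. Of the 13 that did not pass, 1 was called under no alternative, *Psmd9*, whose direction varied. Scaling by library totals gave 15 members higher. Without the members that share sequence or exons with other genes, a choice made after the data were seen, 15 were lower and 5 higher, by construction from fewer genes. The median log2 fold change of the members was -0.08 with upper-quartile scaling, -0.03 with library totals and -0.11 with at least 10 counts in every library. Leaving out each library in turn gave 18 to 26 lower members, 6 to 12 higher members and a median of -0.21 to -0.14. Such fits have 1 group of a single library and take the spread from the other pair, with 18 and 20 lower members without a DMSO library and 25 and 26 without an inhibitor library. With GC offsets, also chosen later, *Psma2* was at -0.19 and *Psmc6* at -0.05, both reversed, the mean immune minus constitutive difference was -0.08 and the *Psmb10* to *Psmb7* difference -1.07. The cause of these changes was not tested. In the replicate 1 pair, centring on the median of all genes gave 8 members lower and 3 higher.

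With the replicate number as a replicate block, 24 members were lower and 11 higher, with a median of -0.16. Deviations of libraries with the same number had a correlation of 0.00701 over 9125 genes. With 2 libraries per group, this value cannot show whether libraries of the same number were paired. The main fit treated them as unpaired. Several members called at differences near 0.2 on the log2 scale lost their calls under some alternatives, *Psme1* (-0.16), *Psma1* (0.17) and *Psmd10* (0.23) among them. Low-count genes such as *Psme2b* carried the larger errors.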
